A study of Paeonia suffruticosa with 12 samples.

Results

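The 7 unigenes described here are named for proteins that coat the oil bodies of seeds. They are 4 oleosins and 3 steroleosins of the peony "FengDan" (Paeonia suffruticosa), picked by their identifiers out of 130956 unigenes (transcript groups of a de novo assembly). All 7 passed the filter used for testing, a count above 0 in at least 3 of 12 libraries, which 58247 unigenes passed. The oleosins were OLE TRINITY_DN11307_c0_g1, OLE TRINITY_DN6066_c0_g1, OLEO6 TRINITY_DN1312_c0_g1 and OLEO6 TRINITY_DN5114_c1_g1. The steroleosins were HSDA TRINITY_DN26416_c0_g1, HSDA TRINITY_DN26416_c1_g1 and HSDB TRINITY_DN11608_c0_g1, and the first part of each identifier is dropped from here on. The assembly has no genome coordinates, so where these genes lie and what their exons are is not known here. The names are the study's matches to proteins of other species and were not checked here. For OLEO6 DN5114_c1_g1 the study's annotation also carries terms for glutathione metabolism and for the eye lens, and for HSDB DN11608_c0_g1 terms for retrograde transport and the retromer, which are not terms of oil body proteins.

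Oil in a seed is held as triacylglycerol in small droplets, the oil bodies, which are wrapped in a single layer of phospholipid and a coat of proteins. Oleosins are the main coat proteins: a long water-avoiding hairpin anchors them in the oil and keeps the droplets small and apart during drying and rewetting. Steroleosins are minor coat proteins that join such an anchor to a dehydrogenase domain that binds sterols. HSDA and HSDB are names of such hydroxysteroid dehydrogenases. Oleosin genes are known as genes of the maturing seed, and their transcripts and proteins are lost as a germinating seedling uses up its oil.

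Seedlings grown from seed embryos in culture were compared in 4 groups of 3 libraries. AC medium held 0.9 g/L activated carbon, an adsorbent, AC and PVP medium held 0.9 g/L activated carbon with 2.5 g/L polyvinyl pyrrolidone (PVP, a polymer that binds phenolics), PVP medium held 2 g/L PVP, and CK medium held neither agent. The PVP dose thus differed between the PVP group and the AC and PVP group. Each sample pooled 10 embryos, and the labels give a mixture of roots with stems and leaves taken at 30 days after rooting in every group, whereas the study's methods name leaves and roots. The study describes seedlings on CK and PVP medium as lacking roots, so the labelled tissue and age are in doubt for these groups. The study chose these groups among others for their germination and their differences in rooting. The study's methods call the replicates biological, and p-values measure only how far these pooled samples varied.

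Estimated counts summed to 11071691 to 25069044 per library. Levels are CPM, the estimated count brought to a common library total, after TMM scaling, a correction for composition with factors between 0.752 and 1.46. Since unigene lengths were not used, CPM compares libraries for 1 unigene and not the amounts of different unigenes. Leaf photosynthesis markers (11 unigenes) were detected in every library, with sums of 43.6 to 578 CPM. The 3 unigenes with names of Casparian strip membrane-like proteins summed to 7.44 to 41.7 CPM. They differed in direction: CSPL5 DN2359_c0_g1 averaged 0.795 ± 0.407 CPM in AC and 22.4 ± 13.7 CPM in PVP (SD, n = 3 each). CSPLA DN113520_c0_g1 averaged 7.15 ± 3.00 and 0.520 ± 0.0494 CPM there, and CSPLB DN9283_c0_g1 averaged 8.91 ± 1.54 and 2.84 ± 0.711 CPM. Their sum therefore does not measure root tissue. The pool is bulk tissue, in which fewer cells of a type and less RNA per cell cannot be told apart.

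One library stood apart before any comparison was made. CK replicate 2 had 10210 CPM in the 7 unigenes together, against 38.1 and 9.48 CPM in CK replicates 1 and 3. The reads of the 7 unigenes made up 1.07% of CK replicate 2, the highest share of the 12 libraries, and 0.000903% of PVP replicate 1, the lowest. Whether its label or the stage of its embryos differed from the rest was not tested, and means and fold changes of CK include it unless stated. The edgeR results of the 7 unigenes against CK are therefore given with and without CK replicate 2, and DESeq2 was run only with it. Because this library was singled out by these same unigenes, their results without it are not independent evidence of a difference or its direction.

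OLEO6 DN5114_c1_g1 held most of the oleosin reads in 10 of 12 libraries. It had 1433, 6173 and 166 CPM in AC replicates 1, 2 and 3, and 62.6, 4491 and 842 CPM in AC and PVP replicates 1, 2 and 3. In PVP replicates 1, 2 and 3 it had 4.83, 7.49 and 161 CPM, against 25.9, 9427 and 5.94 CPM in CK replicates 1, 2 and 3. All AC libraries lay above all PVP libraries, but AC replicate 3 did so narrowly, and AC and PVP replicate 1 lay below PVP replicate 3. CK replicate 2 was the highest library of all and the other CK libraries were among the 4 lowest. Ranked by reads within its library, this unigene was number 10 in CK replicate 2, number 20 in AC replicate 2 and number 6636 in PVP replicate 1.

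The other OLEO6 unigene, DN1312_c0_g1, had 20.6, 75.2 and 29.9 CPM in AC replicates 1, 2 and 3, and 16.2, 107 and 35.3 CPM in AC and PVP replicates 1, 2 and 3. It had 0.296, 0.531 and 1.81 CPM in PVP replicates 1, 2 and 3, against 0.536, 50.2 and 0.0389 CPM in CK replicates 1, 2 and 3. The lowest library with carbon was thus above the highest PVP library. CK replicate 3 rested on 1 read, while CK replicate 2 fell within the range of the AC libraries.

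OLE DN11307_c0_g1 had 70.6, 454 and 364 CPM in AC replicates 1, 2 and 3, and 138, 202 and 460 CPM in AC and PVP replicates 1, 2 and 3. Its PVP libraries had 2.498, 3.72 and 36.4 CPM, against 10.5, 468 and 2.72 CPM in CK replicates 1, 2 and 3. The 6 libraries with carbon spanned a narrower range for this oleosin than for DN5114_c1_g1, and all 6 lay above the PVP libraries and above CK replicates 1 and 3. OLE DN6066_c0_g1 had 37.6, 125 and 18.5 CPM in AC replicates 1, 2 and 3, and 11.96, 94.7 and 64.2 CPM in AC and PVP replicates 1, 2 and 3. It had 1.52, 0.797 and 6.75 CPM in PVP replicates 1, 2 and 3, against 1.07, 258 and 0.661 CPM in CK replicates 1, 2 and 3. Here too the libraries with carbon were all above the PVP libraries, and CK replicate 2 exceeded every other library.

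The steroleosins were far sparser and are given with their reads. HSDB DN11608_c0_g1 had 169, 405 and 30 reads in AC replicates 1, 2 and 3 (6.88, 21.1 and 1.81 CPM), and 17, 148 and 68 reads in AC and PVP replicates 1, 2 and 3 (0.807, 9.93 and 6.13 CPM). It had 1, 0 and 0 reads in PVP replicates 1, 2 and 3, against 0, 100 and 3 reads in CK replicates 1, 2 and 3. Reads of HSDB were thus near absent from all PVP libraries and from CK replicates 1 and 3. HSDA DN26416_c0_g1 had 70, 87 and 6 reads in AC replicates 1, 2 and 3, and 1, 49 and 13 reads in AC and PVP replicates 1, 2 and 3. It had 1, 0 and 1 reads in PVP replicates 1, 2 and 3, against 2, 86 and 0 reads in CK replicates 1, 2 and 3. AC and PVP replicate 1 could not be told from the PVP libraries at this depth. HSDA DN26416_c1_g1 had 19, 102 and 2 reads in AC replicates 1, 2 and 3, and 1, 131 and 26 reads in AC and PVP replicates 1, 2 and 3. It had 0 reads in every PVP library, and 0, 34 and 0 reads in CK replicates 1, 2 and 3. A count of 0 over the 3 PVP libraries allows up to 0.0513 CPM (3 counts over the group), and this limit covers counting error only. The HSDA pair shares the assembly cluster DN26416, so the assembler may have divided the reads of 1 gene or of near-identical copies between them.

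**Figure D1:**
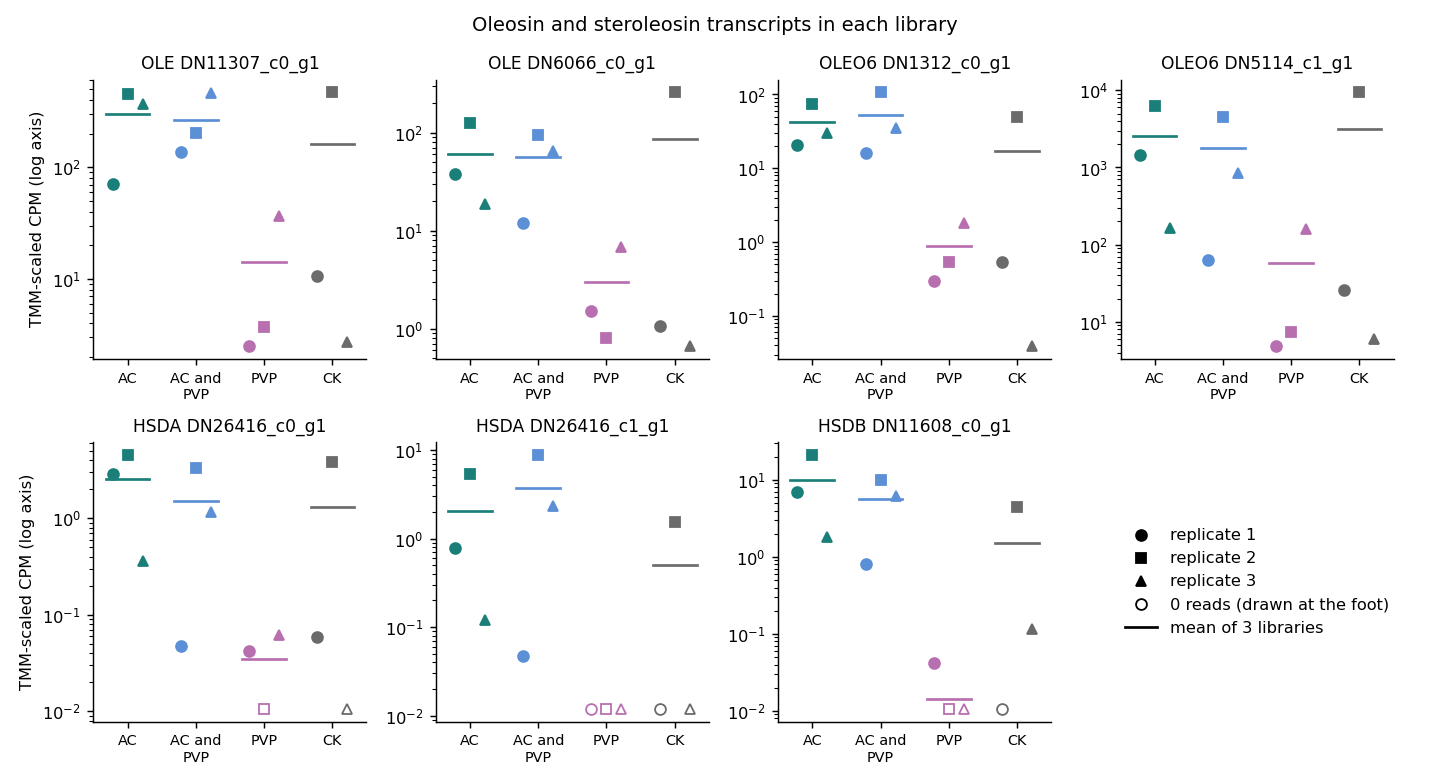
TMM-scaled CPM (log axis) of each unigene in AC, AC and PVP, PVP and CK libraries, 1 point per library with the replicate shown by the marker, a line at the mean of 3 libraries, and open markers at the foot for libraries with 0 reads. For each unigene CK replicate 2 lies far above CK replicates 1 and 3, and the AC libraries lie above the PVP libraries.

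Ordered by group mean, the PVP group was last for all 7 unigenes, and the order of the other groups varied. OLE DN11307_c0_g1 averaged 296 ± 201 CPM in AC, 266 ± 171 CPM in AC and PVP, 14.2 ± 19.3 CPM in PVP and 160.5 ± 266.6 CPM in CK (SD, n = 3 each). OLEO6 DN5114_c1_g1 averaged 2591 ± 3166 CPM in AC, 1799 ± 2364 CPM in AC and PVP, 57.8 ± 89.5 CPM in PVP and 3153 ± 5434 CPM in CK (SD, n = 3 each). CK was the highest group for DN5114_c1_g1 and OLE DN6066_c0_g1 through its replicate 2 alone. The last place of PVP also rested on that library for every oleosin. CK replicates 1 and 3 averaged 6.63 CPM for OLE DN11307_c0_g1 and 15.9 CPM for DN5114_c1_g1, below the PVP means, as for the other oleosins. For HSDB they averaged 0.0583 CPM, above 0.0141 CPM in PVP, and both HSDA unigenes were at or near 0 in both. Of 21 pairs of neighbouring groups in these orders, 1 differed by more than the larger SD of the pair. It was OLE DN6066_c0_g1, with 57.0 ± 41.8 CPM in AC and PVP and 3.02 ± 3.25 CPM in PVP (SD, n = 3 each).

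Libraries of the same group differed more in these unigenes than in most others. The SD between replicates on the log2 CPM scale, pooled over the 4 groups, was 1.95 for HSDB DN11608_c0_g1 to 3.73 for OLEO6 DN5114_c1_g1, with a median of 2.34 over the 7 unigenes. Its median was 0.534 over all unigenes tested and 0.418 over the 14113 with a mean log2 CPM over 0. Each of the 7 exceeded between 97.99% and 99.88% of those 14113 unigenes. The spread was not a matter of CK only: the median SD of the 7 was 1.74 in AC, 1.84 in AC and PVP, 1.17 in PVP and 3.83 in CK. Within AC, OLEO6 DN5114_c1_g1 varied most, with an SD of 2.62, and OLEO6 DN1312_c0_g1 varied least, with 0.960.

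**Figure D2:**
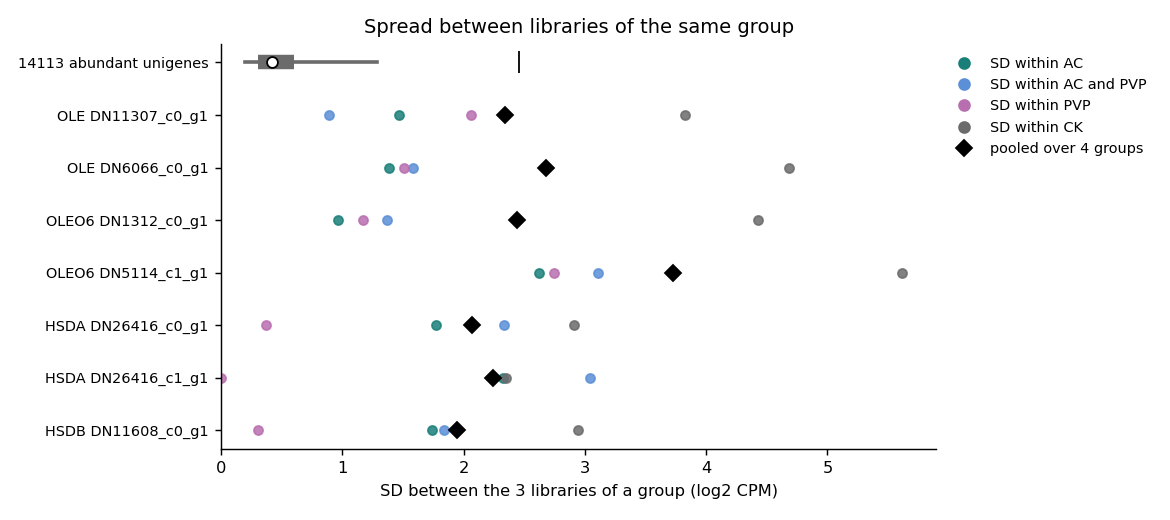
SD between the 3 libraries of a group on the log2 CPM scale for each unigene, with coloured points for the groups and black diamonds pooled over the 4 groups. The top row gives the 14113 unigenes with a mean log2 CPM over 0 (thick bar, middle 50%; thin line, 5% to 95%; open point, median of 0.418; tick, 99%). All pooled values lie to the right of the 95% point, and the CK points lie farthest right for 6 of 7 unigenes. An SD near 0 in PVP comes from reads at or near 0.

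CK replicate 2 exceeded the mean of CK replicates 1 and 3 by 70.7-fold for OLE DN11307_c0_g1 and by 592-fold for OLEO6 DN5114_c1_g1. The corresponding ratio was 297-fold for OLE DN6066_c0_g1 and 175-fold for OLEO6 DN1312_c0_g1. It was the highest of the 12 libraries for 3 of 4 oleosins and for 0 of 3 steroleosins. HSDB in CK replicate 2 had 4.49 CPM, below AC replicates 1 and 2 and below AC and PVP replicates 2 and 3. HSDA DN26416_c1_g1 in CK replicate 2 had 1.53 CPM, below AC replicate 2 and below AC and PVP replicates 2 and 3, while HSDA DN26416_c0_g1 had 3.86 CPM there, below AC replicate 2 only.

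Set against oleosin reads, steroleosin reads were therefore fewer in CK replicate 2 than in any library with carbon. There were 6.73, 4.53 and 3.95 steroleosin reads per 1000 oleosin reads in AC replicates 1, 2 and 3. AC and PVP replicates 1, 2 and 3 had 3.95, 4.50 and 6.88 per 1000. CK replicate 2 had 0.968 per 1000 (95% exact binomial interval 0.844 to 1.10, counting error only), from 220 steroleosin and 227376 oleosin reads. The 6 libraries with carbon thus lay between 3.95 and 6.88 per 1000 while their oleosin reads ran between 4808 and 131122. PVP replicate 3, with 1 steroleosin read and 3298 oleosin reads, had 0.303 per 1000 (95% exact binomial interval 0.00767 to 1.69), also below every library with carbon. PVP replicates 1 and 2 and CK replicates 1 and 3 held at most 3 steroleosin reads each, too few to place their ratio. With 1 CK library of usable depth, the difference from the carbon groups has no replicate check.

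The make-up of the oleosin reads also varied inside groups. OLEO6 DN5114_c1_g1 took 91.1% and 90.0% of the reads of the 7 unigenes in AC replicates 1 and 2, but 28.6% in AC replicate 3. It took 27.3%, 91.3% and 59.7% in AC and PVP replicates 1, 2 and 3. OLE DN11307_c0_g1 was the leading unigene where DN5114_c1_g1 was not, with 62.7% in AC replicate 3 and 60.0% in AC and PVP replicate 1. In PVP replicates 1, 2 and 3 DN5114_c1_g1 took 52.3%, 59.7% and 78.1%, against 68.0%, 92.3% and 62.7% in CK replicates 1, 2 and 3. The ratio of DN5114_c1_g1 to DN11307_c0_g1 reads was between 13.6 and 22.3 in AC replicates 1 and 2, AC and PVP replicate 2 and CK replicate 2, the 4 libraries with the most reads of the 7 unigenes. It was 0.457 in AC replicate 3 and 0.456 in AC and PVP replicate 1, and between 1.83 and 4.42 in the other 6 libraries. No group kept a ratio of its own outside the range of the others, and AC and AC and PVP each spanned nearly the whole range. Because these are ratios within a library, they do not depend on the scaling of library size.

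**Figure D3:**
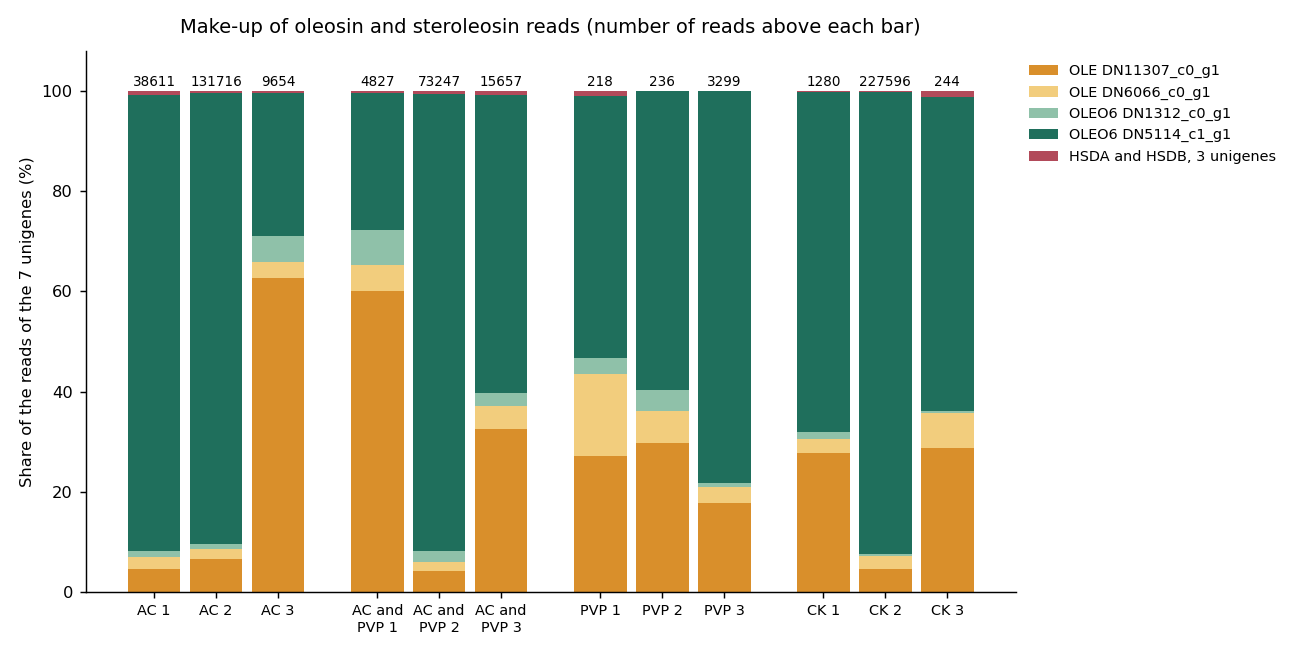
Share (%) of the reads of the 7 unigenes taken by each oleosin unigene and by the 3 steroleosins together in each library, with the number of reads above each bar. OLEO6 DN5114_c1_g1 takes 90.0% or more in the 4 libraries with the most such reads and 28.6% and 27.3% in AC replicate 3 and AC and PVP replicate 1.

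The comparison of AC with PVP asks how seedlings on carbon differed from those on the other anti-browning agent. All 7 unigenes were higher in every AC library than in every PVP library, as were 4.74% of all unigenes tested, yet none passed the test. The study listed all 7 as different in this comparison, and they carry names for that reason, so neither count is independent evidence of the direction. For HSDA DN26416_c1_g1 the separation rested on 2 reads in AC replicate 3 against 0 in PVP. Under edgeR's quasi-likelihood test with Benjamini-Hochberg adjustment over all unigenes, 0 of 7 reached an adjusted p under 0.05 with an absolute log2 fold change over 1, against 0.263% of all unigenes tested. At an unadjusted p under 0.05 there were 7, all higher in AC, against 8.6% of all unigenes tested, while DESeq2 found 7 from the libraries of both groups alone (2.28% of the unigenes tested) and 3 from all 12 libraries (1.24%). The log2 fold change was 5.61 ± 1.58 (SE) for OLEO6 DN1312_c0_g1, with an adjusted p by edgeR of 0.231. It was 4.39 ± 1.46 for OLE DN11307_c0_g1 (adjusted p by edgeR, 0.355) and 5.49 ± 2.24 for OLEO6 DN5114_c1_g1 (adjusted p by edgeR, 0.499). HSDB had the smallest adjusted p by edgeR, 0.0901. Since it had 1 PVP read, its change is best given as a ratio of pooled levels: 585-fold higher in AC, with a counting interval of 105- to 23130-fold. HSDA DN26416_c0_g1, with 2 PVP reads, was 78.9-fold higher in AC by the same measure (counting interval 21.5- to 657-fold), and HSDA DN26416_c1_g1, at 0 in PVP, was at least 39.7-fold higher. The median log2 fold change of the 7 was 5.61, or 5.49 with DN26416_c1_g1 set at its bound, and it was -0.0334 over all unigenes tested.

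AC and PVP against PVP asks what carbon added in the presence of PVP, at PVP doses that were not equal. The PVP libraries are the same as in the comparison of AC with PVP, so the results share them. In 5 of 7 unigenes every AC and PVP library was above every PVP library, against 5.1% of all unigenes tested; the exceptions were OLEO6 DN5114_c1_g1 and HSDA DN26416_c0_g1, both through AC and PVP replicate 1. HSDA DN26416_c1_g1 was counted as separated on only 1 read in AC and PVP replicate 1, against 0 reads in PVP. The study listed 5 of the 7 here. By edgeR 0 of 7 were called, against 0.0704% of all unigenes tested, with 7 at an unadjusted p under 0.05 (9.42% of all unigenes tested), and DESeq2 found 6 from the libraries of both groups (2.11% of the unigenes tested) and 2 from all 12 (0.563%). The log2 fold change was 5.95 ± 1.60 for OLEO6 DN1312_c0_g1 (adjusted p by edgeR, 0.274), 4.23 ± 1.45 for OLE DN11307_c0_g1 (0.412) and 4.96 ± 2.19 for OLEO6 DN5114_c1_g1 (0.511). HSDB was 290-fold higher in AC and PVP by pooled levels (counting interval 51.5- to 11480-fold), and HSDA DN26416_c1_g1 was at least 65.4-fold higher. The median log2 fold change of the 7 was 5.20, with DN26416_c1_g1 fitted or at its bound, and 0 over all unigenes tested.

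Against CK, the result turned on CK replicate 2. With all 12 libraries, edgeR called 0 of 7 in AC vs. CK, where 0.323% of all unigenes tested were called, and 1 of 7, HSDB, had an unadjusted p under 0.05, as did 9.33% of all unigenes tested. DESeq2 found 0 of 7 too, both from the libraries of both groups alone (1.42% of the unigenes tested) and from all 12 (1.44%). The log2 fold changes of AC over CK were -0.28 ± 1.85 for OLEO6 DN5114_c1_g1, -0.52 ± 1.39 for OLE DN6066_c0_g1 and 0.89 ± 1.27 for OLE DN11307_c0_g1, and 2.73 ± 1.196 for HSDB. Without CK replicate 2, edgeR called 4 of 7, all higher in AC, where 0.781% of all unigenes tested were called. They were OLE DN6066_c0_g1 (log2 fold change 6.10 ± 1.17, adjusted p by edgeR 0.0267), OLEO6 DN1312_c0_g1 (7.08 ± 1.14, 0.0120), HSDA DN26416_c0_g1 (6.05 ± 1.40, 0.0481) and HSDB (7.42 ± 1.42, 0.0229). OLE DN11307_c0_g1, with 5.48 ± 1.24 and an adjusted p by edgeR of 0.0610, and OLEO6 DN5114_c1_g1, with 7.34 ± 2.18 and 0.183, did not pass. Removing any other single library from AC or CK gave 0 calls. CK replicate 2 was left out for its high level in these same unigenes, which favours calls higher in AC. The 4 calls without it are therefore not independent evidence of a difference.

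The same library decided AC and PVP vs. CK. By edgeR 0 of 7 were called in AC and PVP vs. CK with all libraries, against 0.834% of all unigenes tested. There were 0 at an unadjusted p under 0.05 (12.8% of all unigenes tested). DESeq2 found 0 from the libraries of both groups alone (3.48% of the unigenes tested) and 0 from all libraries (2.72%). Without CK replicate 2, edgeR called 4 of 7, all higher in AC and PVP, where 1.37% of all unigenes tested were called. They were OLE DN11307_c0_g1 (log2 fold change 5.32 ± 1.23, adjusted p by edgeR 0.0486), OLE DN6066_c0_g1 (6.02 ± 1.16, 0.0236), OLEO6 DN1312_c0_g1 (7.42 ± 1.16, 0.00908) and HSDB (6.59 ± 1.41, 0.0314). The remaining CK libraries are the same 2 as in AC vs. CK. Leaving CK replicate 2 out leaves 2 CK libraries, and the fit assumes that they vary like the other groups. Since that library was chosen by its level in these unigenes, these 4 calls too are not independent evidence of a difference.

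PVP against CK changed direction with that library. With all 12 libraries the log2 fold changes of PVP over CK were -3.50 ± 1.40 for OLE DN11307_c0_g1 to -6.03 ± 2.08 for HSDB over the 6 unigenes with any PVP reads. By edgeR 0 of 7 were called, against 0.704% of all unigenes tested, with 6 lower in PVP at an unadjusted p under 0.05 (11.2% of all unigenes tested, in either direction). DESeq2 found 1 of 7, lower in PVP, from all 12 libraries, where it called 2.9% of all unigenes tested, and gave no adjusted p for any of the 7 from the libraries of both groups alone. Without CK replicate 2 the log2 fold changes of the same 6 unigenes ran from -1.33 ± 2.46 for HSDB to 1.85 ± 1.65 for OLEO6 DN5114_c1_g1, and 5 of the 6 were above 0. None of these passed, where 0.499% of all unigenes tested did, and the smallest adjusted p by edgeR was 0.547, for OLE DN6066_c0_g1.

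AC vs. AC and PVP sets carbon alone against carbon with PVP. By edgeR 0 of 7 were called, against 0.00687% of all unigenes tested, with 0 at an unadjusted p under 0.05 (6.29% of all unigenes tested). DESeq2 found 0 from the libraries of both groups alone (0.263% of the unigenes tested) and 0 from all libraries (0.0635%). The log2 fold changes ran from -0.84 ± 1.34 for HSDA DN26416_c1_g1 to 0.83 ± 1.12 for HSDB, each smaller than its SE, so a difference was not detectable and equality is not shown. The interaction is the change with carbon in the presence of PVP minus that in its absence. It was also called for 0 of 7 by edgeR, against 0.00172% of all unigenes tested, with 2 at an unadjusted p under 0.05 (7.47% of all unigenes tested). DESeq2 on all libraries called 0 (0.177% of all unigenes tested). The interaction was positive for all 7 with all libraries and ran from 3.35 to 5.24 on the log2 scale over the 6 unigenes with PVP reads. Without CK replicate 2 it ran from -2.38 for OLEO6 DN5114_c1_g1 to 0.50 for HSDB over these 6, with 0 of 7 called by edgeR against 0.0149% of all unigenes tested.

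**Figure D4:**
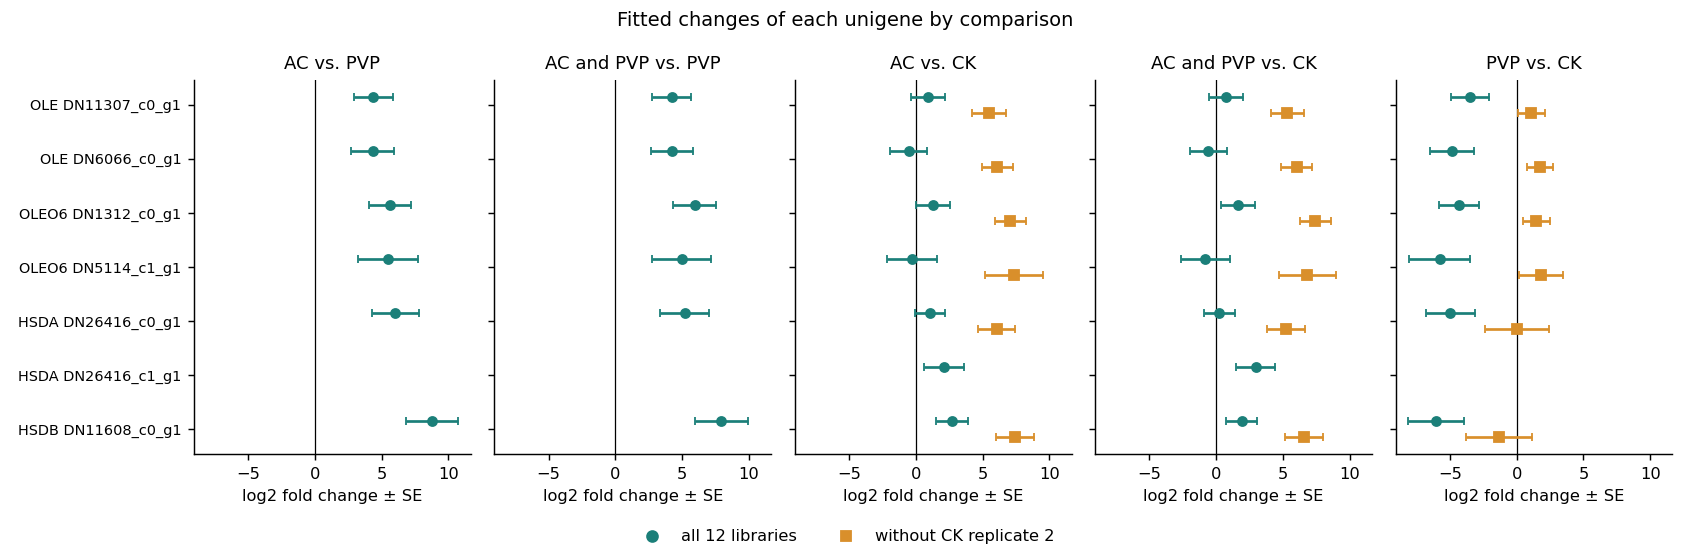
Fitted log2 fold change ± SE of each unigene in 5 comparisons by edgeR, with all 12 libraries (circles) and without CK replicate 2 (squares). HSDA DN26416_c1_g1 is left out where a group had 0 reads. In AC vs. CK and AC and PVP vs. CK the squares lie between 5.23 and 7.42 while the circles lie between -0.81 and 2.95, and in PVP vs. CK the circles lie between -6.03 and -3.50 while 5 of 6 squares are above 0.

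The 7 unigenes moved together across libraries. Pearson's r of log2 CPM between pairs of them ran from 0.741 (OLE DN11307_c0_g1 with HSDA DN26416_c1_g1) to 0.967 (OLE DN6066_c0_g1 with OLEO6 DN5114_c1_g1), with a median of 0.909 over 21 pairs and 12 libraries. These points share libraries, depth and scaling. For the mean standardised profile of the 7, the most alike of 14108 other unigenes with a mean log2 CPM over 0 were the unnamed DN66366_c0_g1 (r = 0.991), OLEL DN9108_c1_g1 (0.990), 2SS DN7446_c0_g1 (0.989), the unnamed DN36698_c0_g1 (0.989) and EML DN2029_c1_g1 (0.983). OLEL is named for a further oleosin, 2SS for a seed storage albumin and EML for an Em-like late embryogenesis protein. Among the 618 of these unigenes with a name, RD19D DN2009_c0_g1 (0.980), a cysteine protease name, and GRDH DN1929_c0_g1 (0.979), the name of a glucose and ribitol dehydrogenase of seeds, came next. An r over 0.9 was reached by 60 of 14108 unigenes, among them 27 of the 618 with a name, and an r under -0.9 by 0.

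OLEL DN9108_c1_g1 had 1273, 4963 and 378 CPM in AC replicates 1, 2 and 3, and 293, 2470 and 836 CPM in AC and PVP replicates 1, 2 and 3. It had 14.0, 18.8 and 42.1 CPM in PVP replicates 1, 2 and 3, against 25.4, 3320 and 12.5 CPM in CK replicates 1, 2 and 3. This oleosin thus had the same high library in CK, and in its case all libraries with carbon lay above all PVP libraries. EML DN2029_c1_g1 had 2900, 11510 and 285 CPM in AC replicates 1, 2 and 3, against 26.7, 8632 and 8.78 CPM in CK replicates 1, 2 and 3. It had 88.3, 4236 and 1212 CPM in AC and PVP replicates 1, 2 and 3, and 8.68, 11.3 and 110 CPM in PVP replicates 1, 2 and 3. For EML, AC and PVP replicate 1 thus lay below PVP replicate 3.

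Other oil body proteins did not all share the pattern. PXG DN400_c0_g1, a caleosin name for a calcium-binding peroxygenase of the coat, had an r of 0.927 to the mean profile. PXG4 DN1571_c0_g1 and PXG4 DN685_c0_g1, further caleosin names of Arabidopsis, had r of -0.503 and -0.517, and OBL1 DN29774_c0_g2, named for an oil body lipase, had -0.565 (12 libraries each). In AC vs. PVP the caleosin PXG DN400_c0_g1 had a log2 fold change of 4.22 ± 1.18 (adjusted p by edgeR, 0.227) and PXG4 DN1571_c0_g1 had -2.12 ± 0.46 (adjusted p by edgeR, 0.0789). Of the 6 other oil body unigenes, 0 were called by edgeR in any of the 6 comparisons, where 0.00687% to 0.834% of all unigenes tested were called. In AC vs. PVP all 6 had an unadjusted p under 0.05, 3 higher and 3 lower, against 8.6% of all unigenes tested. Their median log2 fold change was 1.56, against -0.0334 over all unigenes tested.

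Genes of oil synthesis and use (7 unigenes) were mixed in direction. In AC vs. PVP all 7 had an unadjusted p under 0.05, 4 higher and 3 lower, against 8.6% of all unigenes tested. Their median log2 fold change was 1.95, against -0.0334 over all unigenes tested. By edgeR 0 were called higher and 2 lower, FATB DN10366_c0_g1 and WRI1 DN57794_c0_g1, where 0.263% of all unigenes tested were called. FATB, an acyl carrier protein thioesterase that releases fatty acids in the plastid, averaged 0.340 ± 0.200 CPM in AC and 4.99 ± 1.33 CPM in PVP (SD, n = 3 each), a log2 fold change of -3.80 ± 0.49 (adjusted p by edgeR, 0.00289). WRI1, a transcription factor of oil synthesis in Arabidopsis, had 3, 0 and 1 reads in AC replicates 1, 2 and 3, against 17, 20 and 20 reads in PVP replicates 1, 2 and 3 (log2 fold change -3.82 ± 0.77, adjusted p by edgeR 0.0357). FATB was also lower in AC than in CK (log2 fold change -3.04 ± 0.49, adjusted p by edgeR 0.0227), and FAD12 DN37134_c0_g1, a fatty acid desaturase, was called higher (adjusted p by edgeR, 0.0486). Without CK replicate 2, FATB had -3.25 ± 0.50 (adjusted p by edgeR, 0.00890) and FAD12 was not called (adjusted p by edgeR, 0.111). FAD12 had 535, 476 and 0 reads in AC replicates 1, 2 and 3, against 1, 1 and 0 reads in CK replicates 1, 2 and 3, so that AC replicate 3 had none. The r to the mean oleosin and steroleosin profile was -0.740 for FATB, -0.672 for DGAT3 DN5218_c0_g1, -0.611 for WRI1 and 0.349 for FAD12 over 12 libraries. DGAT3 was lower in AC than in PVP but not called (log2 fold change -1.40 ± 0.34, adjusted p by edgeR 0.129). ACEA DN5579_c0_g1 and MASY DN97003_c0_g1, names of the glyoxylate cycle enzymes isocitrate lyase and malate synthase through which seedlings turn oil into sugar, had r of 0.808 and 0.543, and FAX4 DN509_c4_g1, a fatty acid export name, had 0.579. The study had listed every unigene of both lists as different in at least 1 of its comparisons, so these counts are not independent evidence either.

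Most of the listed transcripts of the maturing embryo, which the tissue labels do not name, varied along with the 7 unigenes. The 5 seed storage proteins summed to 6614, 16320 and 1794 CPM in AC replicates 1, 2 and 3, and to 321, 14840 and 4167 CPM in AC and PVP replicates 1, 2 and 3. The sums were 14.5, 23.7 and 96.6 CPM in PVP replicates 1, 2 and 3, against 38.0, 30470 and 18.5 CPM in CK replicates 1, 2 and 3. Within each group the library with the highest sum of oleosins and steroleosins thus also had the highest sum of seed storage proteins. In PVP and in CK replicates 1 and 3, 1 of the 5 storage unigenes was at 0. The 7 late embryogenesis proteins summed to 221 to 2987 CPM in AC and 151 to 1509 CPM in AC and PVP. They summed to 35.5 to 158 CPM in PVP and 16.7 to 6234 CPM in CK. LEA1 DN2199_c0_g2 alone had 4142 CPM in CK replicate 2. Of these 7 proteins, 6 had an r over 0.8 to the mean profile, but LEA5 DN4874_c0_g1 had -0.529. LEA5 averaged 22.4 ± 8.44 CPM in PVP, its highest group, and 5.43 ± 2.32 CPM in AC (SD, n = 3 each). In PVP vs. CK edgeR called only LEA5 of this list, with a log2 fold change of 1.90 ± 0.40 (adjusted p by edgeR, 0.0454). There 0.704% of all unigenes tested were called. With CK replicate 2 included, the list had 1 higher and 6 lower at an unadjusted p under 0.05 by edgeR, against 11.2% of all unigenes tested. Leaf photosynthesis markers summed to 94.0 to 227 CPM in AC, 241 to 510 CPM in AC and PVP, 259 to 578 CPM in PVP and 43.6 to 158 CPM in CK, with CK replicate 2 the lowest library. These sums hide markers that differed in direction. In AC vs. CK 4 of the 11 were higher and 3 lower at an unadjusted p under 0.05 by edgeR, against 9.33% of all unigenes tested. RBS1 DN622_c0_g2 averaged 2.28 ± 3.04 CPM in AC and had 0 in PVP, although the sums were higher in PVP (SD, n = 3). The part of embryo tissue in the differences between libraries was not tested. Every unigene of these lists too had been listed by the study as different in at least 1 of its comparisons. Their likeness to the 7 unigenes is therefore not independent evidence.

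**Figure D5:**
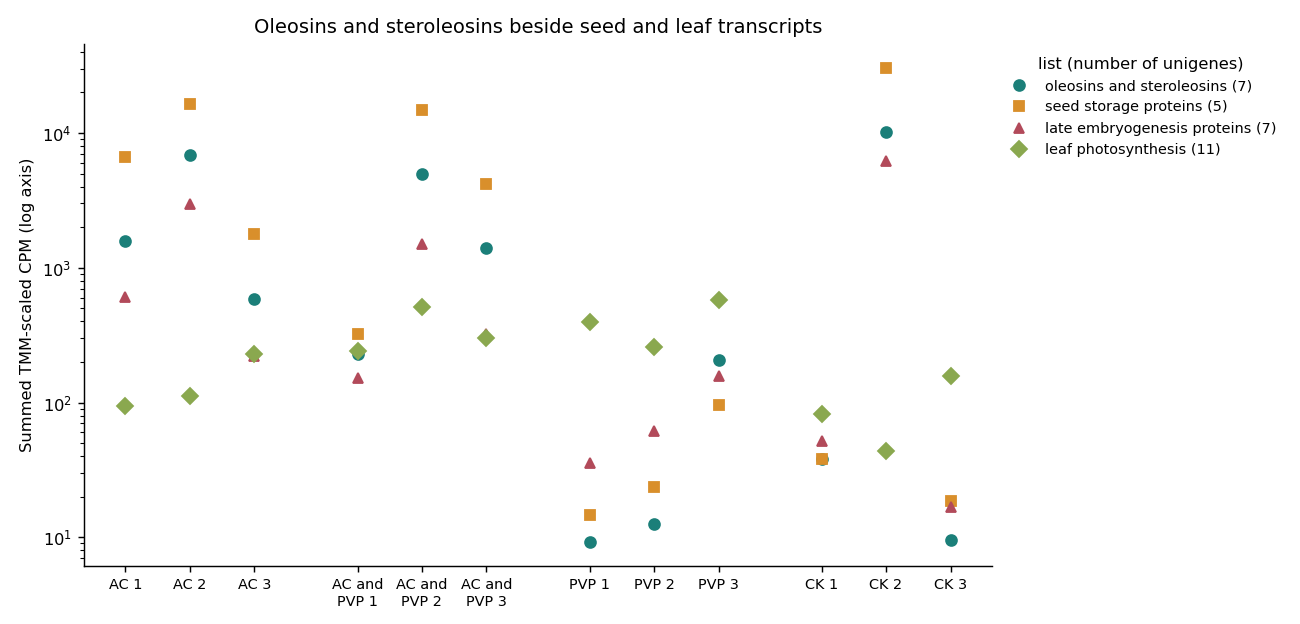
Summed TMM-scaled CPM (log axis) of the 7 oleosins and steroleosins, 5 seed storage proteins, 7 late embryogenesis proteins and 11 leaf photosynthesis markers in each library, 1 point per list and library. The first 3 lists peak in CK replicate 2, at 10210, 30470 and 6234 CPM, where the leaf markers have 43.6 CPM.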

How the data were processed

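RNA of 12 libraries, 3 each of AC, AC and PVP, PVP and CK, was analysed from the estimated counts that the authors deposited, 1 per unigene and library. Per the labels and the study's methods, the authors trimmed reads with TrimGalore 0.6.4, assembled them with Trinity 2.4.0, aligned them with Bowtie 1.2.3 and estimated counts with RSEM 1.3.3, which divides reads shared by similar unigenes. Counts were rounded (3 of the 84 values of the 7 unigenes were not whole), and unigenes above 0 in at least 3 libraries were tested in R 4.3.3 with edgeR 4.0.16 and limma 3.58.1 by TMM scaling, a quasi-likelihood fit of all 12 libraries, and Benjamini-Hochberg adjustment over 58247 unigenes. A call needs a change of over 1 on the log2 scale, in either direction, with an adjusted p under 0.05. The script was tested on simulated data. DESeq2 1.42.0, which the study used, was an alternative, with others of scaling, filter, dispersion and samples. Profiles used log2 CPM with a prior count of 2.

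All 7 unigenes are named, with the 5 most alike by r overall and among named unigenes. The plan was to name the 4 of each list with the smallest adjusted p by edgeR in AC vs. PVP. It was followed for other oil body proteins and for oil synthesis and use. It was not followed for seed storage and late embryogenesis proteins, of which fewer are named. Any further unigene was picked with its values in view. Members and lists were chosen with earlier results of these data known. Names came from the study's lists of differentially expressed unigenes (769 of 1555 have one).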

Additional observations from a re-analysis of the deposited data

How the results depend on the processing

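Calls among the 7 unigenes depended on the tool and on the libraries, and the cause was not tested. With no filter on low counts edgeR called 3 for AC vs. CK, 3 for AC and PVP vs. CK, 7 for PVP vs. CK, 7 for AC vs. PVP, 7 for AC and PVP vs. PVP and 7 for the interaction, where it called 1.13% to 2.3% of 122083 unigenes tested. In AC vs. PVP edgeR called 1 by library sizes only (0.28% of all unigenes tested), 1 with the legacy dispersion (0.393%) and 3 on the libraries of both groups only (0.54%), and DESeq2 called 7 on those and 3 on all libraries. In AC and PVP vs. PVP DESeq2 called 6 on both groups and 2 on all libraries, and in PVP vs. CK it called 1 on all libraries and gave no adjusted p on both groups. RLE size factors, filterByExpr, robust estimation and the adjusted p alone left the count of calls at 0 in every comparison.

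Replicate numbers were not taken to pair the samples, since the labels tie no number to a shared batch. The study's methods do describe the biological replicates as paired, without naming what they share. Deviations of same-numbered libraries had r between -0.124 and 0.195 over 18 pairs. Of these pairs 7 were over 0.1, against 6 of 36 pairs of other numbers, and 7 of 12 libraries were closest to one of their own number. These values do not settle whether the numbers pair the samples. With the replicate number as a block, edgeR called 1 for AC vs. CK, 2 for AC and PVP vs. CK, 1 for PVP vs. CK, 5 for AC vs. PVP and 4 for AC and PVP vs. PVP, and 0.75% to 2.49% of all unigenes tested. The block turned the log2 fold change in AC vs. CK to 1.19 for OLE DN6066_c0_g1 and 2.65 for OLEO6 DN5114_c1_g1, in AC and PVP vs. CK to 0.93 and 0.33 for these, and in AC vs. AC and PVP to -0.32 for OLE DN11307_c0_g1. Library sizes only turned HSDA DN26416_c0_g1 in AC and PVP vs. CK to -0.0713.

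Each comparison was refitted by edgeR without 1 library at a time of its own groups, and the interaction without any 1 library. This gave 0 to 4 calls in AC vs. CK, 0 to 4 in AC and PVP vs. CK, and 0 elsewhere. Comparisons that do not involve CK, such as AC vs. PVP, were thus not refitted without CK replicate 2. That library enters their shared estimate of the spread, and its part in their 0 calls was not tested. Log2 fold changes that changed sign ranged as follows. In AC vs. CK they ran from -1.62 to 6.10 for OLE DN6066_c0_g1, -1.98 to 7.34 for OLEO6 DN5114_c1_g1 and -0.0025 to 8.41 for HSDA DN26416_c1_g1, whose upper value is fitted against CK libraries at 0. In AC and PVP vs. CK they ran from -1.19 to 6.02 for OLE DN6066_c0_g1, -2.80 to 6.82 for OLEO6 DN5114_c1_g1 and -1.26 to 5.23 for HSDA DN26416_c0_g1. In PVP vs. CK they ran from -5.69 to 1.09 for OLE DN11307_c0_g1, -6.20 to 1.76 for OLE DN6066_c0_g1, -5.35 to 1.47 for OLEO6 DN1312_c0_g1, -9.00 to 1.85 for OLEO6 DN5114_c1_g1 and -5.51 to 0.0363 for HSDA DN26416_c0_g1. In AC vs. AC and PVP they ran from -0.29 to 0.82 for OLE DN11307_c0_g1, -1.02 to 0.67 for OLE DN6066_c0_g1, -1.07 to 0.71 for OLEO6 DN1312_c0_g1, -1.17 to 2.52 for OLEO6 DN5114_c1_g1, -2.95 to 0.93 for HSDA DN26416_c1_g1 and -0.35 to 1.56 for HSDB. In the interaction they ran from -1.24 to 5.54 for OLE DN11307_c0_g1, -1.85 to 6.12 for OLE DN6066_c0_g1, -1.13 to 5.69 for OLEO6 DN1312_c0_g1, -2.38 to 8.48 for OLEO6 DN5114_c1_g1 and -0.86 to 4.82 for HSDA DN26416_c0_g1. None changed sign against PVP. CPM of library totals in place of TMM moved 0 of 84 member levels by more than 1 SD of the group. By Spearman's rho in place of Pearson's r, 1 of the 5 most alike unigenes, OLEL, was shared.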

Other observations

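By Spearman's rho, the named unigenes most like the mean profile of the 7 oleosins and steroleosins included OBP1A DN50674_c0_g1, the name of an oil body-associated protein that the lists did not hold, chosen after its values were seen. It had 55.6, 124 and 36.7 CPM in AC replicates 1, 2 and 3, and 26.1, 122 and 73.6 CPM in AC and PVP replicates 1, 2 and 3. Its PVP libraries had 0.931, 2.496 and 10.7 CPM, against 4.82, 233 and 0.350 CPM in CK replicates 1, 2 and 3. Every library with carbon was thus above every PVP library, and CK replicate 2 was the highest of all.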
